A study of Mus musculus with 6 samples.

Results

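The 10 genes described here encode actins and actin-binding proteins of the contractile apparatus. They are Acta1, Acta2, Actg2, Tagln, Tagln2, Cnn1, Cnn2, Tpm1, Tpm2 and Myl9, chosen by symbol for this function out of 20325 genes listed in the files, and all 10 passed the filter on low counts. They were measured by RNA sequencing in 6 libraries from 2 partially reprogrammed mouse lines (pre-iPSCs), pre3 and pre2-2, with 1 library for each line and treatment. In the siTet1 group cells were transfected with an siRNA against Tet1, in the control siRNA group with a control siRNA, and the untransfected group received none. All 6 libraries came from cells at passage 10, kept in LIF-containing stem cell medium to which vitamin C was added at 50 µg/ml. The cells derive from embryonic fibroblasts of OG2 transgenic mice, which carry a Pou5f1-GFP reporter, on a background of 1/2 129SVJ, 3/8 C57B6 and 1/8 CBA. The sample labels name fibroblasts as the cell type and the series description names pre-iPSCs. Separate cultures for the libraries within a line are not stated, so p-values measure only the spread between these libraries.

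Contractile genes of smooth muscle and of myofibroblasts, the activated fibroblasts of wounds, are classic targets of serum response factor (SRF). SRF binds the CArG box, and its cofactors of the myocardin family (Mkl1 and Mkl2 encode a pair of them) enter the nucleus when free actin monomers are used up in filaments. Acta2 and Tagln are widely used markers of this state, and fibroblasts lose such genes as they are reprogrammed towards pluripotency.

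Upstream sequences are shown first because several members share the SRF motif there. RefSeq windows on GRCm38.p6 matched 8 of the 10 members by symbol; Actg2 and Tagln had no entry. Each line gives the 250 bases before the annotated gene start, 5′ to 3′ on the gene's strand. The stretches are Acta1 at chr8:123894776-123895025 on the minus strand, Acta2 at chr19:34255374-34255623 on the minus strand, Myl9 at chr2:156775214-156775463 on the plus strand, Cnn2 at chr10:79988350-79988599 on the plus strand, Tpm1 at chr9:67049214-67049463 on the minus strand and Tagln2 at chr1:172499996-172500245 on the plus strand. Capitals mark a CArG box, a CArG-like stretch with G or C at 1 of the 6 middle positions, the MCAT motif of TEAD factors (GGAATG) or a TATA motif (TATAAA), on either strand, and no matches overlapped.
Acta1: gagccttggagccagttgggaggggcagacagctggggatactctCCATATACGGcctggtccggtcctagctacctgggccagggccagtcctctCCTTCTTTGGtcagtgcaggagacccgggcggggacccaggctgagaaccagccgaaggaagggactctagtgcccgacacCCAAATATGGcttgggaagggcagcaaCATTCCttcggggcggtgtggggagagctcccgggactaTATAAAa
Acta2: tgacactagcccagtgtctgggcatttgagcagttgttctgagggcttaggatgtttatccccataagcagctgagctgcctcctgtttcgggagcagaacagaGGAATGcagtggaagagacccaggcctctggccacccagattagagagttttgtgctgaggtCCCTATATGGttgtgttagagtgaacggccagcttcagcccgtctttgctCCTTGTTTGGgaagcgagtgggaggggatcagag
Myl9: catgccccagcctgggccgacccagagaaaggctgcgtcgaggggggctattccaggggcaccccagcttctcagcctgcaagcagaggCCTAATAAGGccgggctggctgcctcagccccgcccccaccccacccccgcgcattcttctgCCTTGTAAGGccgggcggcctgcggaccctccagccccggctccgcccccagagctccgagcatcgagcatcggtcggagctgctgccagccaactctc
Cnn2: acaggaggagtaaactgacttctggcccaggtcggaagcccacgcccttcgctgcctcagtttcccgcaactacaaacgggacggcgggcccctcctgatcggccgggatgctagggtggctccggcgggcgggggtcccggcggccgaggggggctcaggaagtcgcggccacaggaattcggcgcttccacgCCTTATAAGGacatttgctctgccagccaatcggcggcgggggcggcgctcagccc
Tpm1: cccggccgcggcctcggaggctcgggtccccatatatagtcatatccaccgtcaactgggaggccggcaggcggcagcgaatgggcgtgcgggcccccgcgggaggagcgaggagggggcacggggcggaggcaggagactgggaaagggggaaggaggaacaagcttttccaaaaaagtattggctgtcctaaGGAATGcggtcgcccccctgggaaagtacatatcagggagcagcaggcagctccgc
Tagln2: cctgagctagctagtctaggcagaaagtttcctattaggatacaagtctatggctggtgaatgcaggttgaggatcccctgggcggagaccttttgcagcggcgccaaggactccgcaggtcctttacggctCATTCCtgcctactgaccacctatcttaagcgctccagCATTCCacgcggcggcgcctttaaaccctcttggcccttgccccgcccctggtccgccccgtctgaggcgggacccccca

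A full CArG box was present upstream of 3 of the 8 members, Acta1 (CCAAATATGG), Cnn2 (CCTTATAAGG) and Myl9 (CCTAATAAGG), against 1.47% of all 32851 windows of the same length. CArG-like stretches occurred in Acta1, Acta2 and Myl9, against 7.24% of all windows. Those of Acta2 were CCCTATATGG, which ends 75 bases before the annotated start, and CCTTGTTTGG, which ends 25 bases before it. The MCAT letters were found in Acta1, Acta2, Tpm1 and Tagln2, against 12.6% of all windows, and the TATA letters in Acta1, against 12.4%. The windows of Cnn1 and Tpm2 held none of these letters. A match is a description of the letters and not a bound site, and no binding was measured in these libraries.

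**Figure D1:**
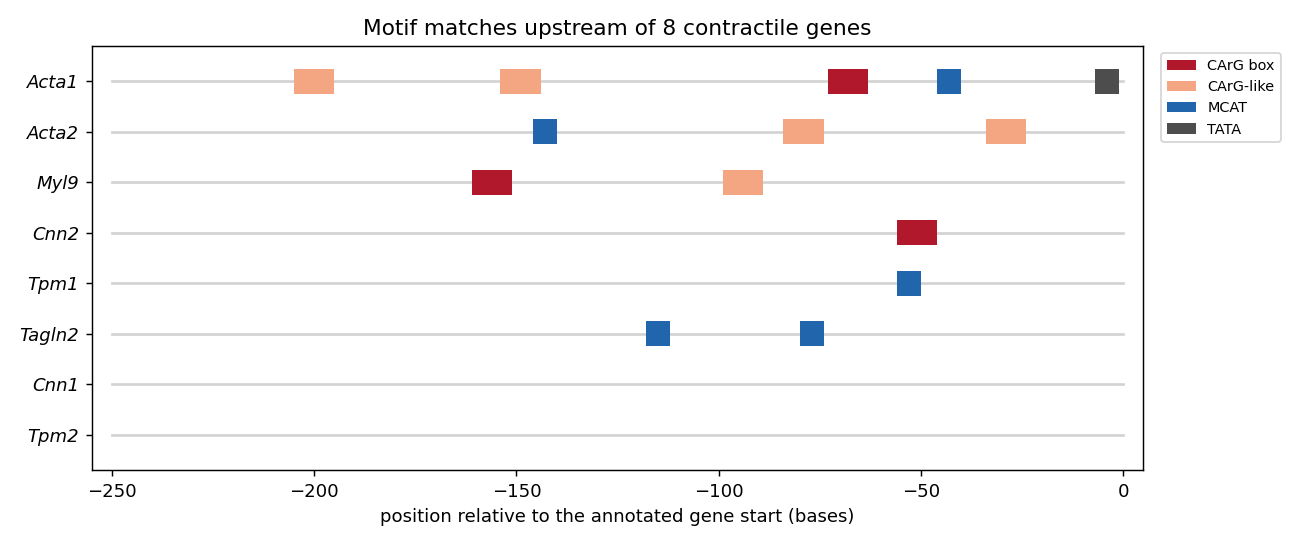
Motif matches (coloured boxes) in the 250 bases before the annotated start of 8 contractile genes, with distance from the start in bases on the x axis. Acta1 holds 3 CArG or CArG-like stretches, Acta2 and Myl9 hold 2 each, and Cnn1 and Tpm2 hold no match.

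The libraries held 1868640 to 2582803 expected counts, so 3 counts corresponded to 1.17 to 1.60 CPM. CPM are counts scaled to library size, here with TMM, edgeR's factor for composition. Tet1 stood at 159 CPM in pre3 and 154 in pre2-2 with siTet1, against 251 and 246 with control siRNA and 205 and 250 in untransfected cells. Against control siRNA it fell by 0.67 on the log2 scale (SE 0.13, edgeR quasi-likelihood test, adjusted p = 0.0043). Of the pluripotency genes, Pou5f1 was at 5794 to 6619 CPM in pre3 and 1042 to 1208 CPM in pre2-2, and Nanog at 0 to 3.54 CPM in all 6 libraries. The first principal component, with 62.6% of the variance, separated the lines, with the siTet1 and control siRNA libraries of pre2-2 at -41.2 and -41.5 and its untransfected library at -19.0. Results against untransfected cells below are therefore also given without that library. In bulk RNA, fewer cells that express a gene and less of its RNA per cell cannot be told apart.

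Per unit of transcript length, the non-muscle transgelin Tagln2 led the members in pre3 and Acta2, the smooth muscle α-actin, had the highest mean in pre2-2. TPM, which scale each gene's counts by transcript length, allow levels of different genes to be compared. In pre3, Tagln2 averaged 469.6 ± 51.9 TPM (SD over the 3 treatments, n = 3) and the tropomyosin Tpm1 181 ± 20.5 TPM, and these did not overlap with each other or with any other member. Acta2 (71.8 ± 6.24 TPM) came next, above the calponin Cnn2 (56.0 ± 11.1 TPM) in every library. The order then ran Tagln (47.5 ± 8.30 TPM), Tpm2 (36.7 ± 9.22 TPM), Myl9 (15.4 ± 3.16 TPM), Actg2 (13.97 ± 3.74 TPM), Acta1 (2.56 ± 2.21 TPM) and Cnn1 (1.23 ± 0.839 TPM). Within it the ranges overlapped between Cnn2 and Tagln, Tagln and Tpm2, Myl9 and Actg2, and Acta1 and Cnn1. In pre2-2 the order was Acta2 (547 ± 244 TPM), Tagln2 (532 ± 57.1 TPM), Tpm1 (481 ± 144 TPM), Tagln (412 ± 199 TPM) and Cnn2 (211 ± 70.7 TPM). Below these came Myl9 (134 ± 58.8 TPM), Tpm2 (92.6 ± 38.8 TPM), Actg2 (47.0 ± 21.9 TPM), Acta1 (24.8 ± 28.5 TPM) and Cnn1 (21.2 ± 10.998 TPM). There each gene's range over the libraries overlapped with that of its neighbour in the order.

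**Figure D2:**
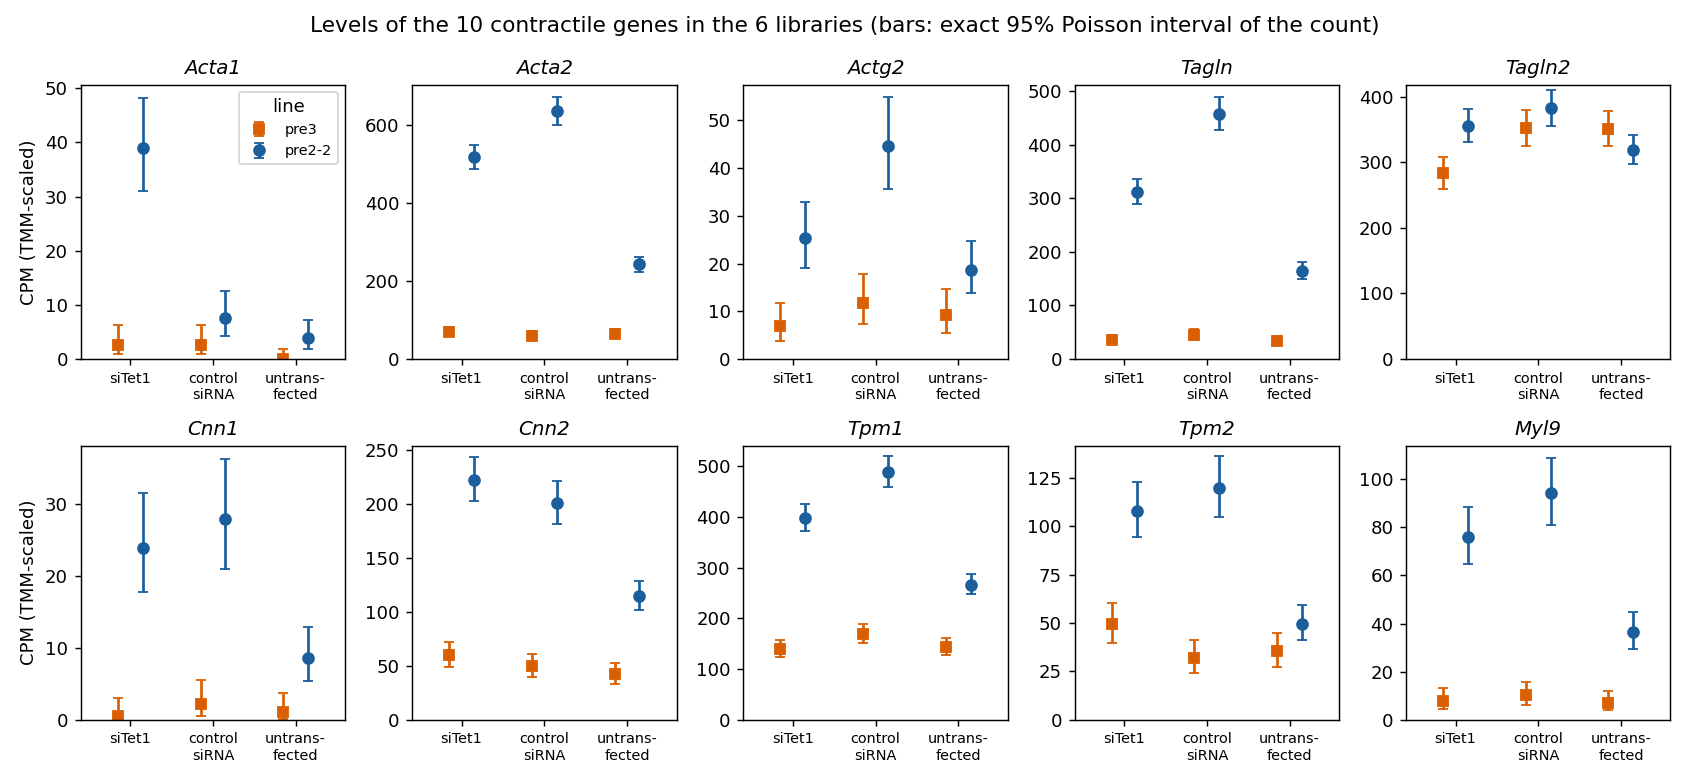
Level of each member in CPM (y axis, from 0) in the siTet1, control siRNA and untransfected libraries of pre3 (squares) and pre2-2 (circles); bars are exact 95% Poisson intervals of the count and cover counting error only. For 9 members all pre3 libraries lie below all pre2-2 libraries, and Tagln2 is the exception.

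Between the lines, more of these genes were called than between treatments. Of the 10 members, 9 were lower in pre3 than in pre2-2 and none was higher, whereas 30.2% of all 11048 genes tested were called, 15.8% lower and 14.4% higher. At an unadjusted p under 0.05 the same 9 stood against 40.2% of all genes. The members' median log2 fold change was -2.28, against 0.00 over all genes. For the same 9 genes the 3 pre3 libraries all lay below the 3 pre2-2 libraries, which held in that direction for 18.2% of all genes. The 3 libraries of a line differ in treatment and share their cells, so they are not independent samples of it.

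Among the actins, Acta2 was at 70.2 CPM with siTet1, 60.2 with control siRNA and 63.6 untransfected in pre3, against 517, 635 and 242 CPM in pre2-2 in the same order of treatments. The lowest pre2-2 library thus lay above every pre3 library, and the fitted change was -2.75 (log2, SE 0.16, adjusted p = 1.44e-12). Actg2, the smooth muscle γ-actin of gut and bladder, was at 6.91, 11.7 and 9.23 CPM in pre3 and 25.3, 44.5 and 18.6 CPM in pre2-2, a change of -1.63 (SE 0.24, adjusted p = 9.26e-06). Acta1, the skeletal muscle α-actin, was near the counting floor in pre3, with 5, 5 and 0 counts, against 83, 15 and 10 counts in pre2-2. Its change of -3.14 (SE 0.48, adjusted p = 1.22e-05) was -2.15 and no longer called without the pre2-2 siTet1 library (adjusted p = 0.0522). The cytoplasmic actins, which all cells use, differed less: Actb stood at -0.40 (adjusted p = 1.63e-05) and Actg1 at -0.61 (adjusted p = 6.06e-08), both lower in pre3.

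The transgelins behaved differently from each other. Tagln, also called SM22α and an actin cross-linking protein of smooth muscle, was at 35.1, 44.8 and 34.4 CPM in pre3 and 312, 458 and 164 CPM in pre2-2 (siTet1, control siRNA and untransfected). The groups did not overlap, and the change was -2.96 (SE 0.15, adjusted p = 9.72e-14). Tagln2, its broadly expressed relative, was at 284, 352 and 351 CPM in pre3 and 355, 382 and 319 CPM in pre2-2. These ranges overlapped, and at -0.10 (SE 0.10, adjusted p = 0.483) Tagln2 was the one member not called between the lines, although it was called lower in pre3 when either untransfected library was left out (-0.21 each, adjusted p = 0.0332 and 0.0343).

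Of the calponins, which bind actin and restrain myosin, Cnn1 is the smooth muscle form and had 1, 4 and 2 counts in pre3 against 51, 55 and 22 counts in pre2-2. Its fitted change was the most negative of the 10, at -3.95 (SE 0.43, adjusted p = 7.34e-08). Cnn2, found in many cell types, was at 59.6, 49.6 and 42.1 CPM in pre3 and 222, 200.4 and 115 CPM in pre2-2, a change of -1.80 (SE 0.13, adjusted p = 4.06e-11). Myl9, the regulatory light chain of smooth muscle and non-muscle myosin, was at 7.98, 10.1 and 7.18 CPM in pre3 and 75.9, 94.1 and 36.5 CPM in pre2-2 (-2.99, SE 0.21, adjusted p = 2.39e-11). In both genes every pre3 library lay below every pre2-2 library.

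The tropomyosins, coiled coils that lie along the actin filament, showed the smallest of the called differences. Tpm1 was at 139, 169 and 143 CPM in pre3 and 398, 488 and 267 CPM in pre2-2 (-1.32, SE 0.11, adjusted p = 1.49e-09); its count sums 10 RefSeq transcripts, so isoforms were not separated. Tpm2 was at 49.5, 32.0 and 35.4 CPM in pre3 and 108, 120 and 49.7 CPM in pre2-2 (-1.20, SE 0.18, adjusted p = 7.42e-06). Its highest pre3 library, siTet1, and its lowest pre2-2 library, untransfected, nearly met.

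Acta2, Tagln, Cnn2 and Tpm1 each made up a smaller share of their gene family's transcripts in pre3. Acta2 took 1.38 to 1.59% of the summed TPM of 6 actin genes in pre3 and 4.001 to 9.62% in pre2-2, while Actb and Actg1 together held nearly all the rest. Tagln took 7.83 to 9.97% of transgelin TPM in pre3 and 30.7 to 50.8% in pre2-2. Tpm1 and Cnn2 took 16.6 to 19.1% and 19.8 to 24.4% of their families in pre3, against 23.4 to 33.6% and 30.7 to 41.2% in pre2-2. For these 4 genes the ranges of the lines did not overlap. Tpm2 took 2.87 to 4.58% of tropomyosin TPM in pre3 and 3.43 to 6.59% in pre2-2, which did overlap. These shares are a description and were not tested.

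**Figure D3:**
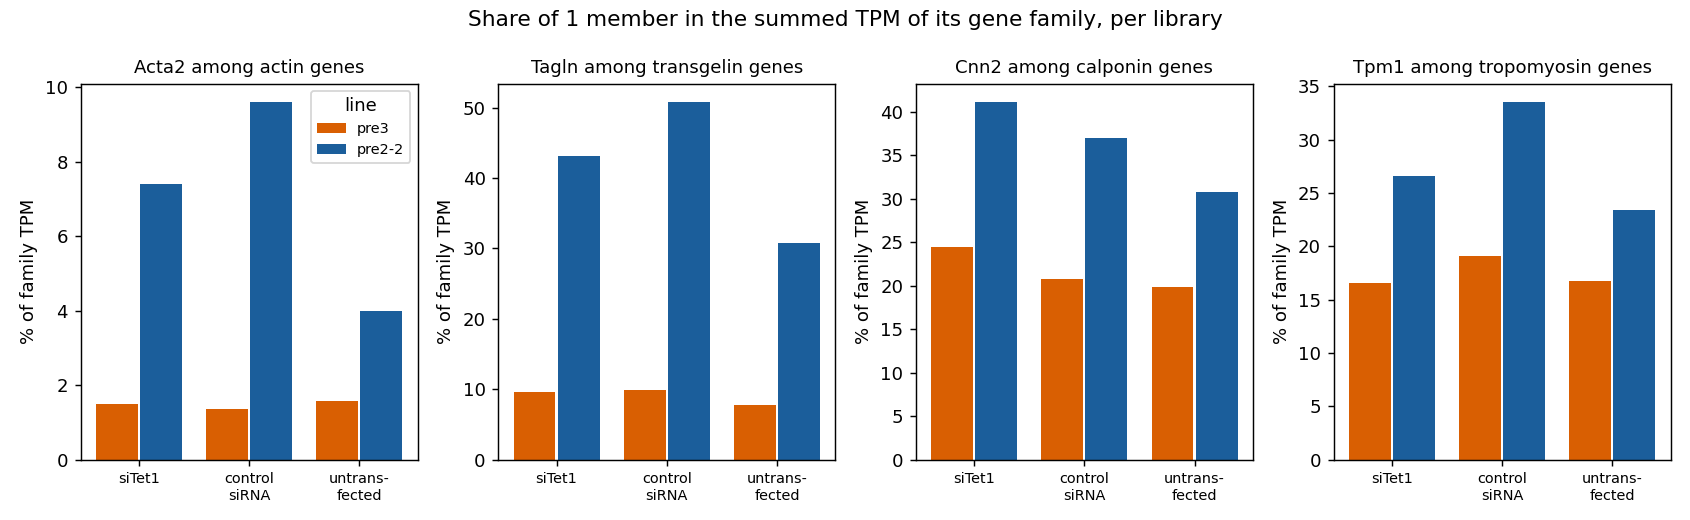
Share of Acta2, Tagln, Cnn2 and Tpm1 in the summed TPM of their gene families (y axis, percent, from 0) by treatment, for pre3 and pre2-2; each bar is 1 library. Acta2 lies at 1.38 to 1.59% in pre3 and 4.001 to 9.62% in pre2-2.

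Other genes of the contractile system were lower in pre3 as well, by less than the members at the median. As background for these counts, 15.8% of all genes tested were called lower and 14.4% higher. Of 19 tested genes of focal adhesions and actin filaments, 17 were lower and none higher (median -0.89). They include Lmod1 (-3.12), an actin filament nucleator of smooth muscle with 0, 0 and 4 counts in pre3, Filip1l (-2.56), the adhesion adaptor Tgfb1i1 (-2.51) and the vinculin gene Vcl (-0.89). Of 12 genes of myosin heavy chains and contraction control, 8 were lower and none higher (median -0.45), among them the non-muscle myosin Myh10 (-2.43), the smooth muscle myosin Myh11 (-2.38) and caldesmon, Cald1 (-0.93). Of 8 tested paralogues of the members, 6 were lower and none higher (median -0.41). Of 7 genes of SRF and its cofactors, Elk3 (-0.98) and Mkl1 (-0.66) were lower and Srf itself was higher in pre3 (0.32, SE 0.11, adjusted p = 0.0271; 161, 158 and 148 CPM in pre3 against 138, 133 and 105 CPM in pre2-2). Of 13 immediate early and YAP-type targets, 9 were lower, among them Ankrd1 (-2.87) and Fosl1 (-2.54), and Egr2 was higher (1.46).

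Markers of other cell types differed between the lines too, in both directions. Of 2 tested haematopoietic markers 1, Laptm5, was higher in pre3 (0.81) and none lower. The 4 haematopoietic markers in the files summed to 272 to 322 CPM in pre3 and 165 to 190 CPM in pre2-2. Laptm5 made up nearly all of this, at 267 to 311 CPM in pre3 and 160 to 179 CPM in pre2-2. Cd68 was at 5.13 to 10.7 CPM in pre3 and 4.55 to 6.22 CPM in pre2-2. Ptprc had 0 to 4 counts in pre3 and 1 to 6 in pre2-2, and Csf1r 0 to 4 and 0 to 10. Of 10 tested fibroblast markers 9 were lower in pre3 and none higher, and the 12 in the files summed to 1865 to 2324 CPM in pre3 and 3090 to 5887 CPM in pre2-2. The 4 tested endothelial markers were all lower (summed 26.6 to 33.6 CPM in pre3 and 87.0 to 109 CPM in pre2-2, with Cdh5 at 1 to 4 counts in pre3 and 0 to 1 in pre2-2). Of the 7 tested genes of pluripotent cells and pre-iPSCs, Pou5f1, Myc and Klf4 were higher and Sall4, Cdh1 and Epcam lower in pre3. Counts per gene symbol do not tell RNA of the cells' own gene from RNA of any introduced copy. Nanog, Zfp42 and Lin28a of that list did not pass the filter. The 6 smooth muscle markers beyond the members summed to 31.4 to 47.7 CPM in pre3 and 44.3 to 63.3 CPM in pre2-2, with Myocd and Synpo2 at 0 to 2 counts in every library. Of the 4 tested, Lmod1, Myh11 and Smtn were lower in pre3 (median of the 4 -1.44), and Des was not called (1.06, adjusted p = 0.052). Of 9 tested interferon response genes 7 were lower in pre3 and none higher (median -2.40). The part of these cell types in the difference between the lines was not tested.

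**Figure D4:**
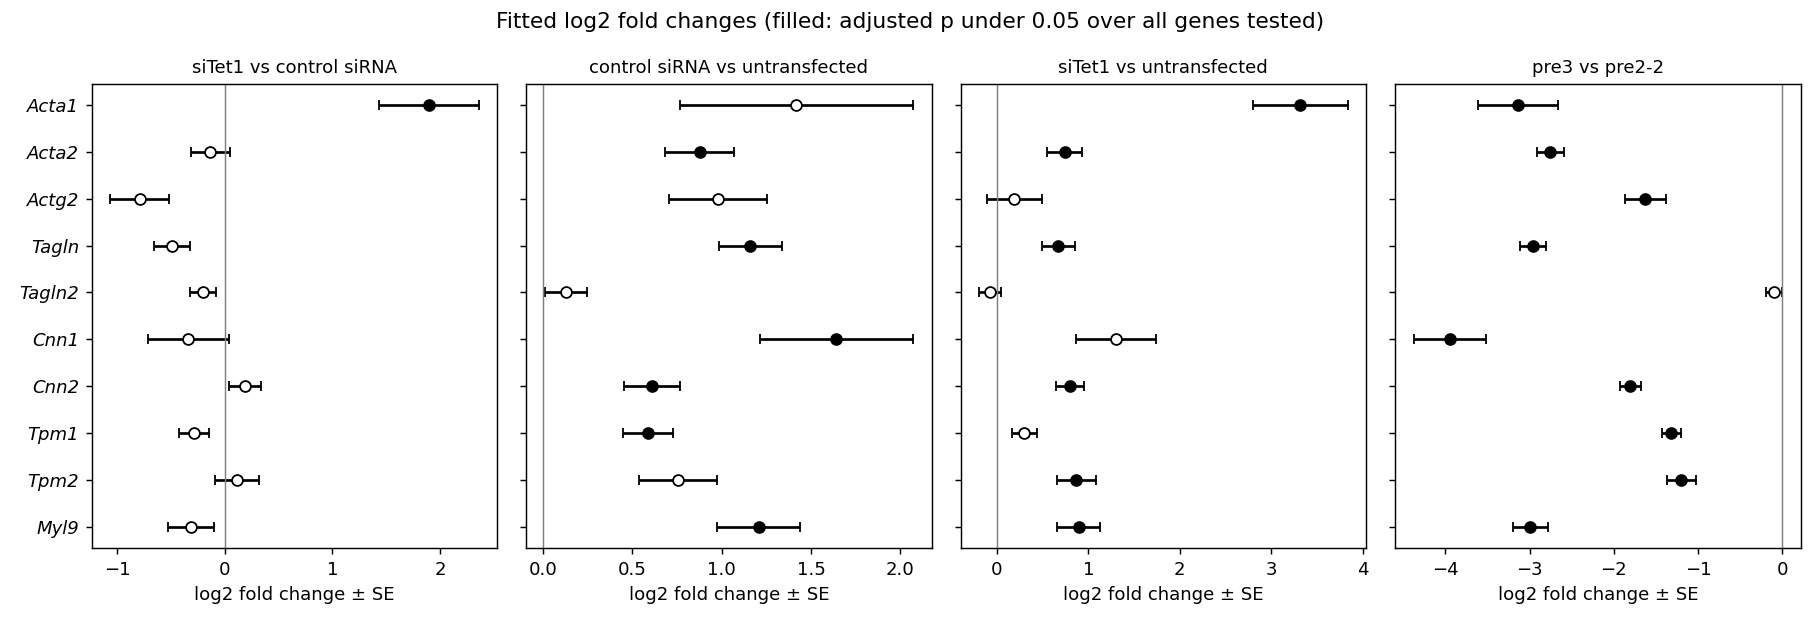
Fitted log2 fold changes (x axis, ± SE) of the members in 4 comparisons; filled circles have an adjusted p under 0.05 over all genes tested. All but Tagln2 are filled below 0 between the lines, and Acta1 alone is filled between siTet1 and control siRNA.

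With siTet1 against control siRNA, the question was whether these genes change when Tet1 is reduced, and Acta1 was the only member called. Among all genes tested 1.58% were called, 1.15% higher and 0.434% lower. Acta1 was at 2.66 CPM in pre3 and 38.9 CPM in pre2-2 with siTet1, against 2.67 and 7.59 CPM with control siRNA. One library, siTet1 in pre2-2, was thus high and the other 3 were low. The fit gave 1.90 (SE 0.46, adjusted p = 0.0316), and 0.48 when siTet1 of pre2-2 was left out and -0.12 when control siRNA of pre2-2 was left out. Both reduced fits leave a group with a single sample, so only effect sizes are given for them. With DESeq2 on all libraries the change of Acta1 was 1.42 and not called. Acta1 shares 2.22% of its 50-base words with other annotated transcripts, most of all with the predicted gene Gm47692. The determination factors of skeletal muscle, Myod1, Myog, Myf5 and Myf6, and the muscle creatine kinase Ckm had 0 counts in all 6 libraries, and the 14 skeletal muscle markers summed to 39.4 CPM in pre3 and 52.9 CPM in pre2-2 with siTet1, against 32.5 and 50.6 CPM with control siRNA.

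The other 9 members were not called with siTet1, and 7 of the 10 had a negative fold change (median -0.24). Tagln stood at -0.49 (adjusted p = 0.19), being lower with siTet1 in both lines (35.1 against 44.8 CPM in pre3 and 312 against 458 CPM in pre2-2). Actg2 stood at -0.79 (adjusted p = 0.197), at 0.59 times its control siRNA level in pre3 and 0.568 times in pre2-2. Tpm1 stood at -0.29 (adjusted p = 0.447), at 0.825 times in pre3 and 0.814 times in pre2-2. These 3 and Acta1 had an unadjusted p under 0.05, as did 10.8% of all genes. When only the 4 libraries compared were fitted with edgeR, all 3 passed in the direction lower (adjusted p = 6.98e-05 for Tagln, 0.0335 for Actg2 and 0.0228 for Tpm1). That fit called 613 genes in place of 175. It leaves 1 residual degree of freedom, so little is known of the spread and the calls were not read as a result. With 1 library left out at a time, the changes ranged from -0.71 to -0.056 for Tagln, -1.02 to -0.45 for Actg2 and -0.45 to -0.11 for Tpm1. Each such fit leaves a group with a single sample, so only effect sizes are given. In the fit to all 6 libraries, Acta2 (-0.14), Tagln2 (-0.20), Cnn1 (-0.34), Cnn2 (0.19), Tpm2 (0.11) and Myl9 (-0.31) had adjusted p of 0.582 to 0.905. No gene was called with siTet1 among the tested paralogues (8), SRF and cofactors (7), myosin and contraction genes (12), adhesion and filament genes (19) and immediate early and YAP-type targets (13); there, 1, 1, 0, 3 and 4 had an unadjusted p under 0.05.

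Control siRNA against untransfected cells served as the background of transfection, and there 6 of the 10 members were higher and none lower, against 1.38 and 0.0996% of all genes (1.48% in either direction). At an unadjusted p under 0.05 there were 9 of the 10, against 9.2% of all genes. The members' median was 0.93, against 0.00 over all genes. Tagln was 1.16 higher (SE 0.18, adjusted p = 0.000253), Myl9 1.21 (SE 0.23, adjusted p = 0.00316), Acta2 0.88 (SE 0.19, adjusted p = 0.0124) and Tpm1 0.59 (SE 0.14, adjusted p = 0.0223). Cnn2 (0.61, adjusted p = 0.0463) and Cnn1 (1.64, adjusted p = 0.0498) passed narrowly. Actg2 (0.98, adjusted p = 0.0831), Tpm2 (0.76, adjusted p = 0.0936), Acta1 (1.42, adjusted p = 0.497) and Tagln2 (0.13, adjusted p = 0.855) did not pass.

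These calls rested mostly on pre2-2. There Acta2 was 2.62 times, Tagln 2.79 times, Myl9 2.58 times, Tpm2 2.41 times and Cnn1 3.26 times its untransfected level with control siRNA, and all 10 members were higher (median log2 difference 1.25, and 0.01 over all genes). In pre3 Acta2 was at 0.947 times, Tagln 1.30 times, Myl9 1.41 times and Tpm2, which was not called, 0.904 times its untransfected level. The called Tpm1 went from 143 to 169 CPM in pre3 and from 267 to 488 CPM in pre2-2. Cnn2, called too, went from 42.1 to 49.6 CPM in pre3 and from 115 to 200.4 CPM in pre2-2. Cnn1, on 4 counts against 2, was at 2.08 times, and 8 of the 10 members were higher, with a median of 0.28. Without the untransfected pre2-2 library the changes were smaller for all 6 called members (Acta2 0.13, Tagln 0.46, Myl9 0.49, Tpm1 0.25, Cnn2 0.29 and Cnn1 0.51). Without the control siRNA pre2-2 library they were 0.21, 0.69, 0.89, 0.40, 0.39 and 2.12 in the same order, smaller for all but Cnn1. Each of these fits leaves a group with a single sample, so a lost call there was not read as a result about these genes. With DESeq2 0 of the 10 were called and 32 genes in all. The direction of the 6 called members was kept under all these settings.

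**Figure D5:**
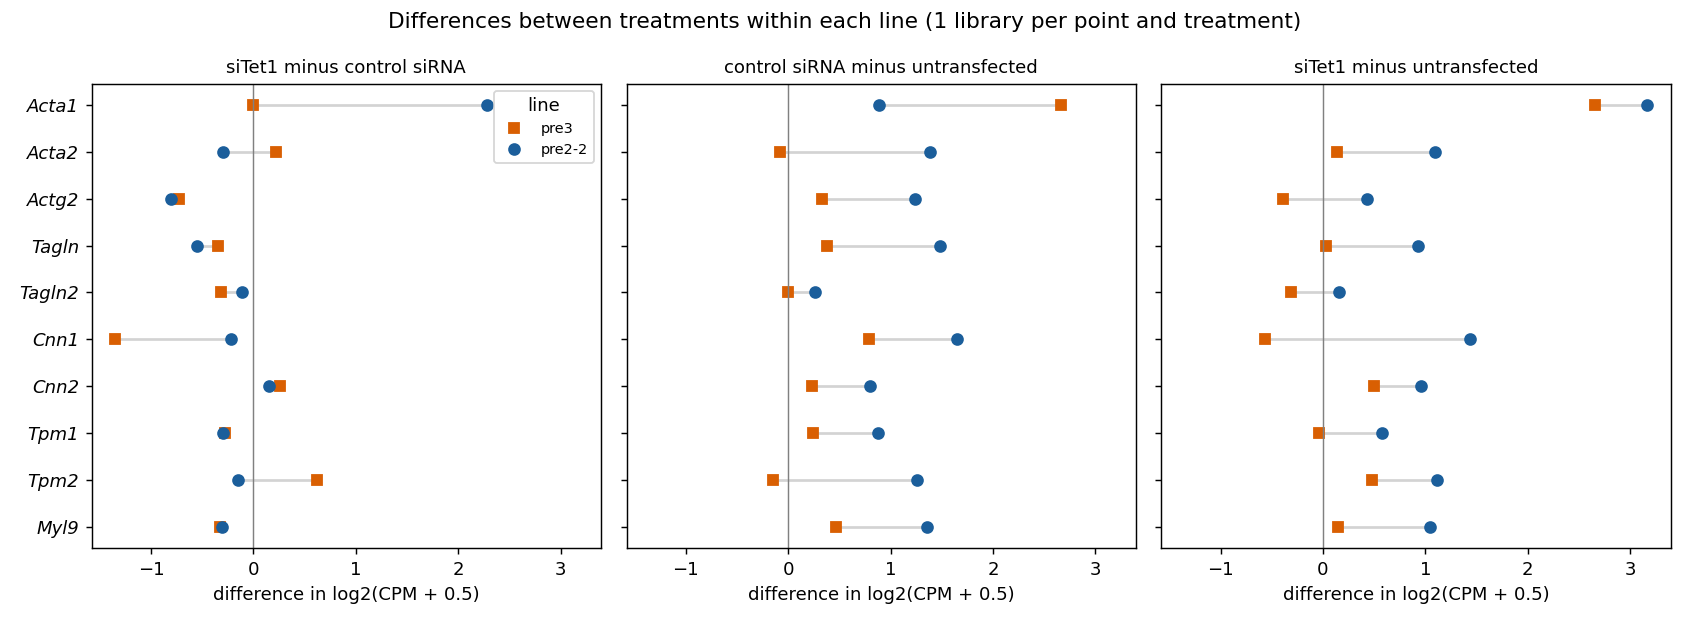
Difference between treatments within pre3 (squares) and pre2-2 (circles) on the log2(CPM + 0.5) scale (x axis) for each member, with 1 library per treatment and line. For control siRNA minus untransfected all 10 circles lie above 0, with a median of 1.25, and the squares have a median of 0.28; the Acta1 square rests on 5 counts against 0.

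Whether the response to transfection differed between the lines was tested as an interaction, with control siRNA and siTet1 of a line as its 2 transfected libraries. None of the 10 members was called, and 1 of 11048 genes was (0.00905%). Acta2 had the smallest p of the members, with an interaction of -1.21 (pre3 minus pre2-2, SE 0.26, unadjusted p = 0.00117, adjusted p = 0.742). Tpm2 (-0.99), Tagln (-1.01) and Tpm1 (-0.62) also had an unadjusted p under 0.05, giving 4 of 10 members against 5.46% of all genes. This interaction cannot be fitted without the untransfected pre2-2 library. The interaction of the line with siTet1, with control siRNA and untransfected cells as the 2 controls of a line, called no gene with DESeq2 or with edgeR, and 7 genes with edgeR when low counts were not filtered, none of them members. There 0 members and 2.44% of all genes had an unadjusted p under 0.05. Acta1 stood at -1.80 in that test (SE 1.36, adjusted p = 1.00). Its fit treats 2 unlike controls as replicates.

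With siTet1 against untransfected cells, which shares libraries with both comparisons above, 6 members were higher and none lower, against 4.92 and 1.63% of all genes (6.55% in either direction). At an unadjusted p under 0.05 there were 8, against 19.5% of all genes. The 6 were Acta1 (3.32, SE 0.52, adjusted p = 0.000187), Cnn2 (0.80, adjusted p = 0.0019), Tpm2 (0.87, adjusted p = 0.0131), Acta2 (0.74, adjusted p = 0.02), Myl9 (0.90, adjusted p = 0.0207) and Tagln (0.67, adjusted p = 0.0238). Cnn1 stood at 1.30 (adjusted p = 0.0747), Tpm1 at 0.30 (adjusted p = 0.229), Actg2 at 0.19 (adjusted p = 0.79) and Tagln2 at -0.07 (adjusted p = 0.799). In pre2-2 Acta2 was 2.13 times and Tagln 1.91 times its untransfected level, and in pre3 1.104 times and 1.02 times. Without the untransfected pre2-2 library Acta1 stood at 6.11, with the remaining untransfected library at 0 counts. Acta2 (-0.054) and Tagln (-0.061) changed sign in that fit, while Cnn2 stood at 0.47, Tpm2 at 0.25 and Myl9 at 0.17. Without the siTet1 pre2-2 library Acta1 was at 1.87, Acta2 at 0.60, Tagln at 0.45, Cnn2 at 0.70 and Myl9 at 0.57. Both fits leave a group with a single sample, so only effect sizes are given for them here. With DESeq2 1 member was called, and without the line in the model none was called in any treatment comparison.

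In the same comparisons with untransfected cells other contractile and matrix genes were higher in part. Among all genes tested, 1.38% were called higher with control siRNA and 4.92% with siTet1. Against untransfected cells, 4 of 19 adhesion and filament genes were higher with control siRNA, among them Filip1l (1.44), Fhl2 (1.42) and Zyx (0.87), and 11 of 19 with siTet1, led by Fhl2 (1.74) and Tgfb1i1 (1.73). The median of the 19 was 0.35 with control siRNA and 0.68 with siTet1. Without the untransfected pre2-2 library it was 0.12 with control siRNA (Filip1l 1.15, Fhl2 1.66 and Zyx 0.30) and 0.21 with siTet1 (Fhl2 1.96). That fit leaves a single untransfected library, so only effect sizes are given for it. Of 13 immediate early and YAP-type targets, 2 were higher with control siRNA, among them Ankrd1 (1.83). With siTet1 4 were higher, among them Ankrd1 (1.13), Ctgf (0.53) and Junb. The median of these targets was 0.07 with control siRNA and 0.33 with siTet1. Without that library it was -0.05 and 0.02, with Ankrd1 at 1.13 and 0.40 in the same order. Egr1 (-0.49) and Fos (-0.46) had negative changes with control siRNA in that fit, as had Fosb with siTet1 (-0.44). None of the tested paralogues was called in either comparison with all libraries, with Actb at 0.05 with control siRNA and 0.21 with siTet1. In the fit without that library Actb stood at 0.092 with control siRNA and 0.255 with siTet1. Of the SRF genes only Elk3 was called, with siTet1 (0.74), and Srf stood at 0.21 with control siRNA (adjusted p = 0.713) and 0.25 with siTet1 (adjusted p = 0.307). Of the myosin and contraction genes 0 of 12 were called with control siRNA and 3 with siTet1, Rhob (0.62), Cald1 (0.51) and Myh9 (0.36). Without the untransfected pre2-2 library Elk3 stood at 0.60 with siTet1, Rhob at 0.17, Cald1 at 0.079 and Myh9 at 0.20.

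Against untransfected cells fibroblast markers were higher in part, as the members were. With siTet1 against control siRNA, Col3a1 alone of the 10 tested was called higher and none lower, against 1.15 and 0.434% of all genes. There 5 of the 10 had a positive and 5 a negative fold change (median -0.05). With control siRNA 4 of 10 were higher than in untransfected cells, Postn (1.28), Col1a1 (0.94), Thy1 (0.86) and Col1a2 (0.81), and with siTet1 6 of 10. The median of the 10 was 0.73 with control siRNA and 0.70 with siTet1, and without the untransfected pre2-2 library 0.42 and 0.29. With control siRNA in that fit, Postn stood at 1.07, Col1a1 at 0.49, Col1a2 at 0.43 and Thy1 at 0.42. A single untransfected library remains there, so only effect sizes are given. The 12 markers summed to 2324 CPM in pre3 and 5425 CPM in pre2-2 with siTet1, to 2119 and 5887 CPM with control siRNA, and to 1865 and 3090 CPM in untransfected cells. All 9 tested interferon response genes were higher with control siRNA than in untransfected cells, among them Isg15 (4.89), and 7 of the 9 fell with siTet1 relative to control siRNA (Isg15 -1.71). Without the untransfected pre2-2 library the 10 interferon response genes then tested had a median of 5.05 with control siRNA against untransfected cells. Isg15 stood at 7.79 in that fit. The part of either in the members' changes was not tested.

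The profile of the members over the 6 libraries was summarised as the mean of their standardised log2 CPM. Of the members, Tpm1 (r = 0.997), Cnn1 (0.992), Myl9 (0.992) and Tagln (0.99) followed it most closely, and Acta1 (0.814) and Tagln2 (0.592) least. Outside the members, the genes most like it were Zfpm2, Slc38a10, Sirt7, Mtap6 and Gnb4, with Pearson r of 0.996 to 0.999 over 6 libraries. Of 11038 genes compared, 320 had an r over 0.95. With a pair of lines and 3 libraries each, genes that separate the lines can score high, so the values are a description only. Slc38a10, for example, ranged only from 128 to 133 CPM in pre3 and 141 to 154 CPM in pre2-2.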

How the data were processed

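The files hold RNA sequencing of 6 libraries (2 lines, 3 treatments). The authors' deposited expected counts per gene symbol came from RSEM 1.1.21 on mm9, per the submitters' processing notes, with 18.7 to 21.4% of values per library not whole (tolerance 0.005). The deposited fraction per gene is its share of all transcripts and was multiplied to TPM. Read length, aligner settings, filters and strand handling are not given in the sources used here. A deposited TPM table of the series, with 6 columns of per-sample values, was not used: it repeats the fractions and 1 column name matches no sample. Timing differs between sources: 48 h of transfection including 36 h of vitamin C in the sample labels, but 16 h and then 32 h in the series description.

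After rounding to whole numbers, edgeR 4.0.16 under R 4.3.3 was used, with filterByExpr by treatment (minimum count 10; 11048 genes kept), TMM factors and the two-sided quasi-likelihood test with line and treatment in the model, fitted to all 6 libraries. Benjamini-Hochberg adjustment ran over all genes tested, and genes with an adjusted p below 0.05 are termed called. The SE was taken as |log2 fold change|/√F. The line is the replicate block, since same-numbered libraries come from the same line; their deviations from the treatment means correlated at 0.667 to 0.772. Alternatives were DESeq2 1.42.0, RLE factors, no filter, no line, fewer libraries and each library left out. List values without the untransfected pre2-2 library were added after seeing the data. Per-line differences use log2(CPM + 0.5). Intervals (95%, exact Poisson) and the 3-count floor cover counting error only.

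The members and gene lists were chosen with earlier results of these data known. All members were named in each comparison, and of the other lists the called genes, at most 3 with the largest change in each direction, plus 1 or more key genes per list; any others named were chosen after their values were seen. One listed gene is not reported here. Shared 50-base words were counted in GENCODE M21 transcripts. Promoters and names come from RefSeq on GRCm38.p6; no coordinates of the files' build are given.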

Additional observations from a re-analysis of the deposited data

How the results depend on the processing

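Between the lines, 9 members were called with edgeR, DESeq2, RLE factors and no filter, and leaving out 1 library gave 8 to 10 members and 2152 to 3631 genes (3335 with all 6, 1429 with DESeq2); Tagln2 ranged from -0.21 to 0.0082. The treatment comparisons depended on the settings. For siTet1 against control siRNA, 1 member and 175 genes were called, against 0 and 24 with DESeq2, 2 and 292 with no filter, and 4 and 613 with only the 4 libraries compared; pooling both controls gave 114 genes, with Acta2 at 0.22, Cnn1 at 0.24 and Myl9 at 0.17. Leaving out 1 library gave 0 to 4 members and 34 to 632 genes, with Acta1 from -0.12 to 2.34, Acta2 from -0.49 to 0.51 and Tpm2 from -0.29 to 0.79. For control siRNA against untransfected cells, 6 members and 164 genes became 0 and 32 with DESeq2 and 259 genes with no filter. Leaving out 1 library gave 0 to 8 members and 27 to 733 genes, with Tagln2 from -0.045 to 0.29. For siTet1 against untransfected cells, 6 members and 724 genes became 1 and 87 with DESeq2. Leaving out 1 library gave 1 to 8 members and 172 to 1900 genes, with Acta2 from -0.054 to 1.13, Actg2 from -0.44 to 0.43, Tagln from -0.061 to 0.93, Tagln2 from -0.25 to 0.089, Tpm1 from -0.043 to 0.56 and Cnn1 from -0.46 to 1.42. Without the line as replicate block, 0 members and 0 genes were called in each of the 3 treatment comparisons. The interaction of line and siTet1 called 7 genes with no filter, and that of line and transfection 5 with DESeq2, none of them members. The causes were not tested. Leaving out a library leaves 1 arm with a single sample, assumed to vary like the others. At 3 counts per library, the levels of Acta1 and Cnn1 in pre3 are limited by depth.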

Other observations

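Genes of other muscle types were mostly at or near 0 in both lines. Of 9 cardiac muscle markers, Myh7 and Nppa had 0 counts in all 6 libraries and 1 passed the filter. That gene, Nppb, which encodes the B-type natriuretic peptide, had 2, 1 and 0 counts in pre3 and 28, 29 and 26 counts in pre2-2 (siTet1, control siRNA and untransfected), a log2 fold change of -4.44 between the lines (SE 0.58, edgeR adjusted p = 1.5e-06). It passed the filter on its pre2-2 counts, and the other cardiac markers did not share its pattern as a list. Myl7 had 5 to 10 counts in pre3 and 1 to 4 in pre2-2, Ryr2 5 to 14 and 1 to 7, Tnni3 7 to 8 and 5 to 10, and Tnnt2 0 to 2 and 2 to 13. Nkx2-5 and Myh6 had 0 to 1 counts in every library. Of 14 skeletal muscle markers 3 passed the filter. All 3 had a negative change between the lines (median -0.69), and Actn2 and Chrna1 were called lower in pre3. Actn2 was at 13.8 to 17.0 CPM in pre3 and 21.5 to 27.3 CPM in pre2-2. Chrna1 had 5 to 12 counts in pre3 and 14 to 29 counts in pre2-2. The fast myosin light chain Mylpf was at 18.6, 9.06 and 12.3 CPM in pre3 and 22.9, 10.6 and 9.32 CPM in pre2-2, so its siTet1 library was the highest in each line, and it was not called with siTet1 against control siRNA. Desmin, Des, the intermediate filament of muscle, had 11, 16 and 28 counts in pre3 and 12, 10 and 8 counts in pre2-2. Its fitted change of 1.06 was opposite in sign to those of the members but did not pass (edgeR adjusted p = 0.052). With siTet1 the lines were nearly equal, at 5.85 CPM in pre3 and 5.62 CPM in pre2-2.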
